A study of Mus musculus with 2 samples.

Results

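Hemoglobin, the oxygen carrier of red blood cells, is built from alpha-globin and beta-globin chains, and the genes for its chains were followed barcode by barcode in 2 single-cell libraries of mouse bone marrow. The genes were chosen by name from a list of 8 symbols. It holds the adult alpha-globin genes Hba-a1 and Hba-a2, the adult beta-globin genes Hbb-bs and Hbb-bt, the embryonic genes Hba-x, Hbb-y and Hbb-bh1, and Ahsp, which encodes a chaperone of free alpha chains. Of these, 7 were found among the 31053 gene IDs of the files, and Ahsp was not analysed here. Both libraries were made from bone marrow cells sorted as Lin- Kit+, that is, cells without the surface markers of mature blood lineages that carry the receptor Kit. The KI library came from mice with a GATA-1 2RA mutation Knockin, and the WT library came from wild-type mice. The labels give no age, sex, strain or number of animals for either. According to the submitters' design text, the marrow of the mutant was set against wild type to look for changes in its cell types and gene control. There was 1 library per genotype, so no difference below has a replicate check, no test across samples was possible, and each interval in brackets is an exact 95% interval that covers counting error only.

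Globin genes are switched on late in red cell development, when the transcription factors GATA-1 and Klf1 and the erythroid enhancers act on 2 gene clusters, alpha-globin on chromosome 11 and beta-globin on chromosome 7. The embryonic genes serve the first red cells of the yolk sac and are silent in adult marrow. Reticulocytes and red cells carry little RNA other than globin RNA, and they have normally lost Kit, so a Lin- Kit+ sort is meant to leave them out. In droplet libraries, globin RNA released by broken red cells can also enter droplets that hold other cells.

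The 4 adult genes lie in pairs of near copies, and their RNA was told apart by the sequence near the 3' end. In mm10 coordinates of the GENCODE M21 annotation, Hba-a1 (ENSMUSG00000069919) spans chr11:32283511-32284465 and Hba-a2 (ENSMUSG00000069917) spans chr11:32296489-32297298, both on the plus strand. Hbb-bs (ENSMUSG00000052305) spans chr7:103826534-103828096 and Hbb-bt (ENSMUSG00000073940) spans chr7:103812524-103813996, both on the minus strand. Over the last 300 bases of the transcripts, Hba-a1 and Hba-a2 were 89.6% identical and Hbb-bs and Hbb-bt were 86.1% identical. Over the last 100 bases they were 72.4% and 67.0% identical. The split of UMIs within each pair is therefore less certain than the sum of the pair. A UMI marks 1 captured RNA molecule at its 3' end, so levels of the genes were compared as UMIs, with no scaling by length.

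The 250 bases before the RefSeq start of Hba-a1, Hbb-bs and Hbb-bt are shown because each of these genes led the globin RNA of a different population below. They come from RefSeq on GRCm38.p6, the build behind mm10, and are written 5′ to 3′ on the gene's strand. The windows are chr11:32283422-32283671 (plus strand) for Hba-a1, chr7:103827929-103828178 (minus strand) for Hbb-bs and chr7:103813924-103814173 (minus strand) for Hbb-bt, and they overlap the longer GENCODE gene spans. Capitals mark GATAA (the core of a GATA factor site), CCACACCC (the core of a Klf1 site), CCAAT (a general promoter element) and TATAA (the TATA box), searched on both strands.
Hba-a1 promoter: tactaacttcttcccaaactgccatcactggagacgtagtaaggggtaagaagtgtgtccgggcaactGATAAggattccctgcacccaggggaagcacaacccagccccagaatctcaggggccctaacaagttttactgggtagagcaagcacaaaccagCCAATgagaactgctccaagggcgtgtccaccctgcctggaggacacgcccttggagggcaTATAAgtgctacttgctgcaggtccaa
Hbb-bs promoter: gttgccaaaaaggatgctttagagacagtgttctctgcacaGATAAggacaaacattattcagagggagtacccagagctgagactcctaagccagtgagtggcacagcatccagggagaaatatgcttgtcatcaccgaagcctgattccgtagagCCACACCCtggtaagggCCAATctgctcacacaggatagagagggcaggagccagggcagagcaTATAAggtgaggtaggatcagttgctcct
Hbb-bt promoter: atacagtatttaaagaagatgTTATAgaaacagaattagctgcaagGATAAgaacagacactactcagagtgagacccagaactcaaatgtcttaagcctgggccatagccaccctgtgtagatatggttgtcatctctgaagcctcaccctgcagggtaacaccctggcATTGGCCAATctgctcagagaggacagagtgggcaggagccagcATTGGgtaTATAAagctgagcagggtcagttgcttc
All 3 windows hold the GATA core, the CCAAT box and the TATA motif on the gene's strand. Counted back from the start, GATAA lies at bases 182 to 178 in Hba-a1, 209 to 205 in Hbb-bs and 204 to 200 in Hbb-bt. Of the 3 windows, that of Hbb-bs alone held CCACACCC, at bases 93 to 86. In Hbb-bt a CCAAT on each strand stands side by side, at bases 80 to 76 and 75 to 71. The Hba-a2 window was 97.6% identical to that of Hba-a1, and those of Hbb-bs and Hbb-bt were 70.5% identical. Among 32817 RefSeq windows of the same length, 22.6% held GATAA, 3.19% CCACACCC, 33.8% CCAAT, 22.8% TATAA, and 2.83% held all of these but CCACACCC. These matches describe letters, not bound sites.

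The files held 6640 KI and 7471 WT barcodes with 48005467 and 70543211 UMIs in all, a median of 4574 and 6996 UMIs per barcode, and none under 500 UMIs. Kit was found in 52.9% of KI and 54.9% of WT barcodes outside the globin-rich ones defined below. Gata1, the mutated gene, stood at 99.7 CPM in KI and 85.9 CPM in WT, where CPM is a count scaled to the library's total. This level is no check of the genotype, because a changed coding sequence can leave the amount of RNA as it was. Mitochondrial RNA exceeded 10% of UMIs in 760 KI and 1722 WT barcodes. A cluster led by the B cell genes Igkc and Cd79a held 32 KI cells and 1 WT cell, and T and NK cells numbered 16 and 5. The libraries shared 10 barcode sequences, none of them globin-rich in either.

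Adult globin RNA was 18.0-fold more abundant in the KI library than in the WT library. The 4 genes summed to 122517 UMIs in KI and 10004 UMIs in WT, or 2552 and 142 CPM, a log2 ratio of 4.17 (4.14 to 4.20). Hbb-bs was the most abundant in both, with 57779 UMIs (1204 CPM) in KI and 4557 UMIs (64.6 CPM) in WT. Hba-a1 had 27652 UMIs (576 CPM) in KI and 2530 UMIs (35.9 CPM) in WT. Hba-a2 had 19416 UMIs in KI and 1515 in WT, and Hbb-bt had 17670 in KI and 1402 in WT. The log2 ratios of the 4 genes lay close together, at 4.01 for Hba-a1, 4.24 for Hba-a2, 4.22 for Hbb-bs and 4.21 for Hbb-bt. All 4 were past 2-fold higher in KI, as were 2.36% of the 12170 genes with at least 50 UMIs over both libraries, while 3.16% were past 2-fold lower.

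The embryonic globin genes were all but undetected. Hba-x, the embryonic alpha-like gene, had 0 UMIs in KI and 1 in WT. Hbb-y, the embryonic epsilon-like gene, had 1 UMI in KI and 0 in WT, and Hbb-bh1, also expressed in the embryo, had 0 in both. With the limit of a count of 0 set at 3 UMIs, 0 allows a level of up to 0.0625 CPM in KI and 0.0425 CPM in WT, and a share of barcodes with such a UMI of up to 0.0452% in KI and 0.0402% in WT. This limits UMIs found, not cells that express the gene. Of the other globin genes in the files, the theta-like gene Hbq1b had 11 UMIs in KI, all in globin-rich barcodes, and 5 in WT, of which 1 was in such a barcode. Hbq1a and Hbb-bh2 had 0 in both libraries.

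Nearly all of this RNA lay in few barcodes. A barcode was called globin-high when the 4 adult genes made up at least 1% of its UMIs. There were 54 such barcodes in KI, or 0.813% (0.612 to 1.06), and 6 in WT, or 0.0803% (0.0295 to 0.175). They held 119301 of the adult globin UMIs in KI, 97.4%, and 8113 in WT, 81.1%. The 10 barcodes with the most adult globin held 31.2% of it in KI and 82.5% in WT, and the highest 2 held 7.96% in KI and 53.2% in WT. In KI no barcode held more than a small share of the total, while most of the WT total came from 3 barcodes.

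**Figure D1:**
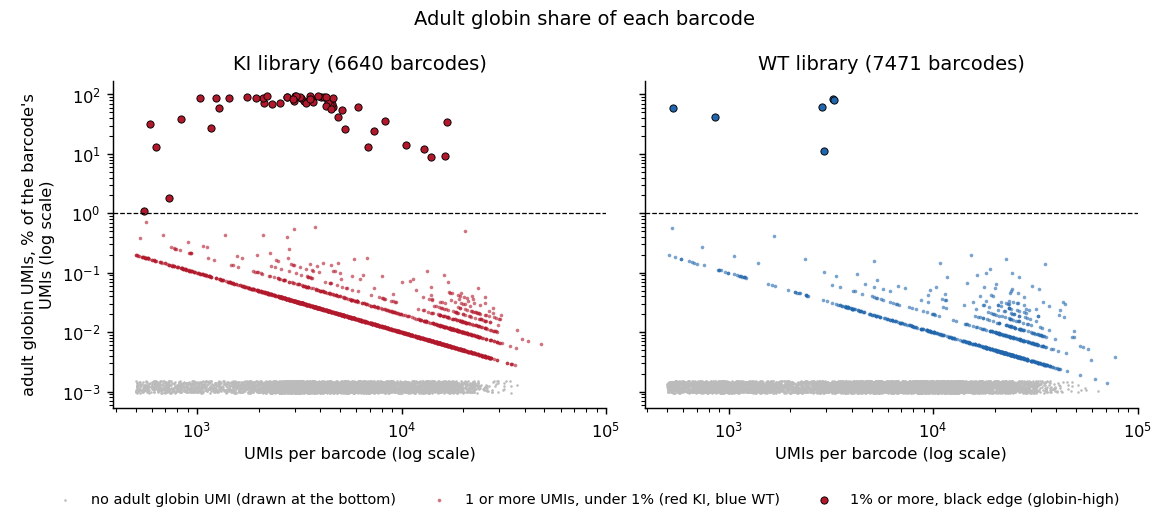
Each point is 1 barcode, with its UMIs on the x axis and the share of adult globin UMIs among them in percent on the y axis (both log scales), for KI (left) and WT (right). Above the dashed line at 1% lie 54 KI and 6 WT barcodes, of which the lowest 2 of KI, at 1.08% and 1.79%, lie near the diagonal bands, in which each band is 1, 2 or more globin UMIs.

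**Figure D2:**
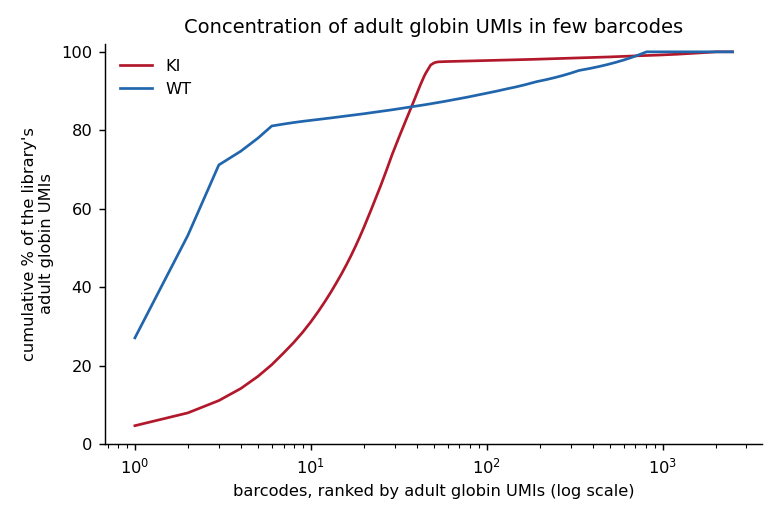
Barcodes are ranked by adult globin UMIs (x axis, log scale), and the y axis gives the cumulative percent of the library's adult globin UMIs. The KI curve reaches 97.1% at 50 barcodes, whereas the WT curve is at 53.2% after 2 barcodes and at 86.9% after 50.

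The globin-high barcodes were dominated by globin RNA and poor in other genes. The adult globin share ranged from 1.08% to 94.8% with a median of 71.6% in KI, and from 11.4% to 83.8% with a median of 60.4% in WT. It was at least 80% in 22 KI and 2 WT barcodes. The threshold fell in a sparse range, since 4 KI barcodes and 1 WT barcode lay between 0.5% and 1%, and 2 KI and 0 WT barcodes between 1% and 2%. The median barcode of the group had 374 genes in KI and 324 in WT, against 1788.5 and 2299 outside it. Mitochondrial RNA made up a median of 0.360% in KI and 0.746% in WT, against 3.69% and 3.97% outside. Total UMIs had a median of 3482.5 in KI and 2893.5 in WT, against 4601.5 and 7003 outside. Under 1000 UMIs were held by 5 KI and 2 WT barcodes of the group.

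The 6 WT barcodes can be listed in full. The richest had 2709 adult globin UMIs among 3231, with 273 genes detected. The next had 2613 among 3262 with 349 genes, and 1797 among 2872 with 594 genes. The other three had 351 among 853, 331 among 2915 and 312 among 535. In KI the richest barcode had 5752 adult globin UMIs among 16717, and adult globin UMIs per barcode ranged from 6 to 5752 with a median of 2442.5.

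Within the globin-high barcodes the genes stood in much the same proportions in both libraries. Hbb-bs gave 47.7% of the adult globin UMIs in KI and 52.5% in WT, and Hba-a1 gave 22.2% in KI and 19.5% in WT. Hba-a2 gave 15.9% in KI and 15.7% in WT, and Hbb-bt 14.2% in KI and 12.2% in WT. Alpha UMIs over beta UMIs had a per-barcode median of 0.608 in KI (0.393 to 1.6) and 0.481 in WT (0.3 to 0.663), so beta-globin RNA exceeded alpha-globin RNA in the typical barcode of either library. In KI, the 34 globin-high barcodes with under 500 genes had a median globin share of 86.6%, and the 20 with 500 genes or more had 38.6%. Hbb-bs gave 48.2% in the gene-poor and 47.0% in the gene-rich barcodes of KI, Hba-a1 gave 21.1% and 23.7%, Hba-a2 17.3% and 13.7%, and Hbb-bt 13.4% and 15.5%. Hba-a1 exceeded Hbb-bs in 1 of the 34 gene-poor and 3 of the 20 gene-rich barcodes. In WT, Hbb-bs gave 49.7% in the 4 gene-poor and 60.4% in the 2 gene-rich barcodes.

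Late red cell genes other than globins were enriched in the same barcodes, which were called without using these genes. Of 12 late erythroid markers, 12 were detected in the KI globin-high barcodes and 9 in the WT ones. Scaled to non-globin UMIs, they summed to 14258 CPM inside and 204 CPM outside in KI, and to 19262 CPM inside and 216 CPM outside in WT. Of 12 early erythroid markers, 12 were detected inside in KI, at 16069 CPM against 5630 CPM outside. In WT 4 were, at 7741 CPM against 5000 CPM, and at 2854 CPM without the barcode with the most. Car2 gave 880 of the 1810 early marker UMIs inside in KI and 33 of the 43 in WT. It was higher inside, at 7812 against 2011 CPM in KI and 5941 against 1640 CPM in WT. Blvrb was also higher inside in both libraries, and Rhd, Klf1, Ermap and Aqp1 were in KI. In WT, Klf1 and Ermap had 1 UMI each inside, and Rhd and Aqp1 had 0. Car1 was lower inside, at 897 against 1925 CPM in KI and 0 against 1824 CPM in WT. Slc4a1, the anion exchanger of the red cell membrane, had 212 UMIs in KI, of which 210 lay in globin-high barcodes, and 9 in WT, of which 7 did. Alas2, the erythroid enzyme that starts heme synthesis, had 323 UMIs in KI with 313 in globin-high barcodes, and 45 in WT with 27. Kit was found in 4 of the 54 KI and 0 of the 6 WT globin-high barcodes, whose median of non-globin UMIs was only 613 in KI and 585.5 in WT. Scaled to non-globin UMIs, Kit stood at 44.4 CPM (14.4 to 104) inside and 134 CPM (131 to 138) outside in KI, from 5 UMIs inside. With barcodes thinned to 500 non-globin UMIs, which left out 20 globin-high barcodes, Kit was found in 1.21% of the 34 others and in 8.45% of the barcodes outside in KI. The KI globin-high barcodes thus had less Kit RNA than the rest of a library sorted for Kit, though at this depth few barcodes of any kind would show it. The 6 WT barcodes are too few to tell.

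Markers of other lineages were also found. In KI, most UMIs of the neutrophil, megakaryocyte, monocyte and macrophage lists lay in 1 barcode for each list. Of 10 neutrophil markers, 4 were detected in each library, at 4066 CPM of non-globin UMIs in KI globin-high barcodes and 8281 CPM in WT ones, against 2177 and 5265 CPM outside. In KI, 407 of the 458 UMIs lay in 1 barcode that was called a doublet, and without it the level was 521 CPM. In WT, 37 of 46 lay in 1 barcode, and without it the level was 2009 CPM. Of 10 megakaryocyte markers, 6 were detected in KI, at 497 CPM against 235 CPM outside, and of 9 monocyte markers 7 were, at 399 CPM against 286 CPM. Without the barcode with the most UMIs of each list these stood at 57.9 and 61.3 CPM. Of 8 macrophage markers, 5 were detected in KI, at 222 CPM against 29.1 CPM outside, and 44.6 CPM without the barcode with the most. In WT 0 of the 10 megakaryocyte and 0 of the 8 macrophage markers were found, and 1 monocyte marker had 1 UMI. Of 4 eosinophil markers, 0 were detected in either library. Stem and multipotent markers stood at 249 CPM in KI against 280 CPM outside, and at 232 CPM without the barcode with the most. In WT they had 4 UMIs. Of the 54 KI barcodes, 52 held a late erythroid marker, 29 a neutrophil marker and 17 a stem and multipotent marker. All 6 WT barcodes held a late erythroid and a neutrophil marker. The part of other cells in the globin counts was not tested.

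By the rule for likeness, the genes whose RNA was most confined to globin-high barcodes in KI were Slc4a1 (99.1% of its UMIs), Alas2 (96.9%), the erythroid gene Trim10 (49.6%), the interferon-induced gene Rsad2 (48.4%) and Tmcc2 (36.8%). In WT they included Bpgm, the enzyme that makes the hemoglobin ligand bisphosphoglycerate (4.23%), Fam46c (2.78%), Trim10 (2.70%) and Trim30b (2.56%). Only genes with at least 50 UMIs in the library were ranked. In WT this left out Slc4a1 and Alas2, with 77.8% and 60% of their few UMIs in globin-high barcodes. The Trim30b value rests on 2 UMIs in 1 WT barcode. Across barcodes, the genes with the highest Pearson r with summed adult globin, by the lower of both libraries, included Trim10 (0.452 in KI, 0.293 in WT), Fam46c (0.472 in KI, 0.290 in WT) and Bpgm (0.412 in KI, 0.183 in WT), over 6640 KI and 7471 WT barcodes. These points share their library and differ in depth. Outside the globin-high barcodes the r values of these 3 genes were at most 0.0397 in KI and 0.143 in WT.

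Outside the globin-high barcodes, adult globin RNA was spread thinly over many barcodes, and more widely in KI. It was found in 1907 KI barcodes, 29.0%, and in 804 WT barcodes, 10.8%. It came to 3216 UMIs (67.3 CPM) in KI and 1891 UMIs (26.8 CPM) in WT, a log2 ratio of 1.33 (1.25 to 1.41), far below the 4.17 over all barcodes. Of the KI barcodes with any, 1535 had UMIs of 1 adult gene alone and 5 had all 4, and in WT 582 had 1 and 24 had all 4.

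The genes differed more from each other here. Hbb-bs stood at 18.0 CPM in KI and 4.21 CPM in WT, a log2 ratio of 2.10 (1.91 to 2.29). Hba-a2 stood at 9.84 CPM in KI and 3.39 CPM in WT, a ratio of 1.54 (1.31 to 1.77), and Hbb-bt at 14.2 and 5.80 CPM, a ratio of 1.29 (1.11 to 1.47). Hba-a1 was closest, at 25.3 CPM in KI and 13.4 CPM in WT, a ratio of 0.91 (0.79 to 1.04), yet it was the most abundant of the 4 in both libraries. Of the 4 genes, 3 were past 2-fold higher, as were 2.34% of the 12162 genes counted, while 3.18% were past 2-fold lower.

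The spread over barcodes also differed by gene. A variance equal to the mean is what independent counting around 1 common mean gives. In KI the ratio of variance to mean outside globin-high barcodes was 8.32 for Hba-a1, 2.56 for Hbb-bt, 2.02 for Hba-a2 and 1.22 for Hbb-bs. Of the 1208 Hba-a1 UMIs in KI, 85 lay in 1 barcode, which raised its ratio, and the ratio without that barcode was not computed. In WT Hba-a1 reached 39 UMIs in 1 barcode. At least 3 Hba-a1 UMIs were held by 101 KI and 85 WT barcodes. Hbb-bs was found in 778 KI barcodes, of which 8 held at least 3 UMIs. In WT the ratio was 5.73 for Hba-a1 and 2.39 for Hbb-bs, and 18 of 211 barcodes with Hbb-bs held at least 3.

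In KI the mean Hbb-bs count per barcode varied by less than 2-fold over the whole range of depth. Barcodes of 500 to under 1000 UMIs held 0.108 Hbb-bs UMIs on average (0.0804 to 0.141), those of 2000 to under 5000 held 0.111 (0.0986 to 0.125), and those of 20000 and over held 0.196 (0.154 to 0.245). In WT the same bins held 0.00665 (0.00244 to 0.0145), 0.0150 and 0.150. Hba-a1 behaved otherwise in KI, with 0.0373 UMIs per barcode at 500 to under 1000 UMIs, 0.0474 at 2000 to under 5000 and 1.19 at 20000 and over, and in WT it stood at 0.00776, 0.0120 and 0.692. In KI the shallow barcodes thus carried the highest globin level relative to their total. At 500 to under 1000 UMIs adult globins stood at 308 CPM in KI and 31.4 CPM in WT, a log2 ratio of 3.29, and at 20000 UMIs and over they stood at 78.0 CPM in KI and 44.5 CPM in WT, a ratio of 0.81. The ratio was smaller in each deeper bin, at 2.79, 2.41, 2.17 and 1.56 in the bins between. Barcodes with over 10% mitochondrial RNA, a sign of damaged cells, stood at 178 CPM in KI and 17.8 CPM in WT.

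**Figure D3:**
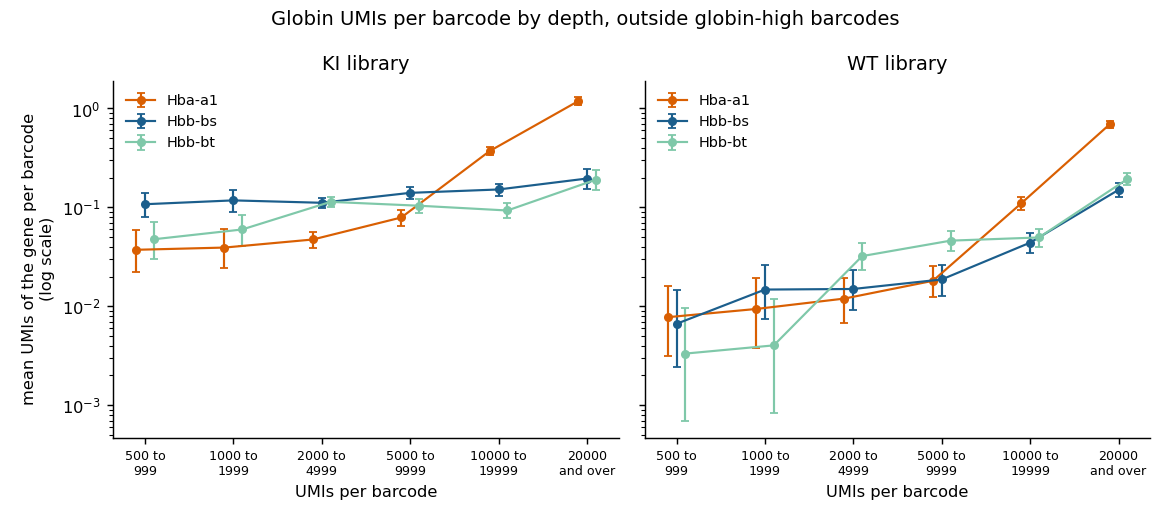
Mean UMIs per barcode of Hba-a1, Hbb-bs and Hbb-bt (y axis, log scale) in bins of UMIs per barcode (x axis), for KI (left) and WT (right), outside globin-high barcodes, with exact 95% Poisson intervals. The KI Hbb-bs line runs nearly flat from 0.108 to 0.196, while Hba-a1 climbs to 1.19 in KI and 0.692 in WT in the deepest bin.

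The composition changed with depth in step. Hbb-bs gave 47.7% of the 109 adult globin UMIs in KI barcodes of 500 to under 1000 UMIs. Its share in the KI globin-high barcodes was also 47.7%, but Hba-a1 gave 16.5% in the shallow barcodes, less than in the globin-high ones. At 20000 UMIs and over, Hbb-bs gave 10.4% in KI and 12.5% in WT, and Hba-a1 gave 62.7% in KI and 57.5% in WT. The 21 adult globin UMIs of WT barcodes of 500 to under 1000 UMIs were too few to fix a composition, with Hbb-bs at 28.6% (11.3 to 52.2).

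To place this RNA by cell type, cells that passed filters on genes, UMIs and mitochondrial RNA were clustered with the globin genes left out, and clusters were named from marker genes. A name ending in -like stands for likeness by those markers and no more. In this way 5492 KI and 5489 WT cells were clustered, and 7 classes had at least 100 cells in each library. The filters removed most globin-high barcodes, since 34 of 54 in KI and 4 of 6 in WT had under 500 genes. Of the 19 kept in KI, 18 lay in the erythroid-like class and 1 in the megakaryocyte-like class. Of the 2 kept in WT, 1 lay among the neutrophil progenitor-like cells and 1 in an unnamed cluster. A lone barcode could set a class: with it, neutrophil progenitor-like cells stood at 31.5 CPM in KI and 382 CPM in WT, a log2 ratio of -3.60, and without it at 31.5 and 1.90 CPM, a ratio of 4.05 (3.01 to 5.26). Megakaryocyte-like cells stood at 764 CPM in KI with theirs and at 67.0 CPM without, against 9.04 CPM in WT. All class values below leave globin-high barcodes out.

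Erythroid-like cells, the class expected to make globin, differed least of the 7 classes once globin-high barcodes were left out. Their level was 1.42-fold higher in KI (1.33 to 1.53). They stood at 66.6 CPM in KI (1741 cells) and 46.8 CPM in WT (1613 cells), a log2 ratio of 0.51 (0.41 to 0.61). With the 18 globin-high cells of KI in, the ratio was 5.30. Hba-a1 led in both, with 57.0% (54.6 to 59.4) of adult globin UMIs in KI and 57.3% (54.7 to 59.8) in WT. Hba-a1 stood at 38.0 CPM in KI and 26.8 CPM in WT, a log2 ratio of 0.50 (0.37 to 0.64), and was found in 26.1% of KI and 24.3% of WT cells at median depths of 14353 and 20242 UMIs. Hba-a2 stood at 10.9 CPM in KI and 6.58 CPM in WT, Hbb-bs at 10.6 and 6.17 CPM, and Hbb-bt at 7.10 and 7.22 CPM, with a log2 ratio of -0.02 (-0.32 to 0.26). Of the 4 genes, 0 were past 2-fold in either direction here, against 2.57% of 10366 genes higher and 1.95% lower.

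The erythroid-like cells of the libraries lay in different clusters. KI cells lay mostly in clusters 1 (1154 cells) and 3 (478 cells), and WT cells in clusters 13 (1098) and 15 (417). Hba-a1 stood at 36.3 CPM in KI cells of cluster 1 and at 30.6 CPM in WT cells of cluster 13. It stood at 10.0 CPM in KI cells of cluster 3 and at 4.30 CPM in WT cells of cluster 15. The 25 KI cells of cluster 13 had 327 CPM of Hba-a1, of which 1 cell held 85 of 124 UMIs, and 109 CPM without that cell, and in cluster 17 the 58 KI cells had 141 CPM and the 88 WT cells 42.1 CPM. Of the barcodes with at least 3 Hba-a1 UMIs, 97 of 101 in KI and 77 of 85 in WT were erythroid-like. Cluster 2, unnamed, with 1219 KI and 30 WT cells, had 0 markers of any class among its top 30 genes. Its KI cells stood at 67.7 CPM with Hbb-bs at 48.3% and Hba-a1 at 18.8%, unlike the erythroid-like class.

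Each of the 6 other classes had a higher level in KI. Stem and multipotent-like cells stood at 118 CPM in KI and 26.7 CPM in WT, a log2 ratio of 2.14 (1.80 to 2.49). Lymphoid-primed-like cells stood at 104 and 22.3 CPM (2.22, 1.64 to 2.85), and megakaryocyte-like cells at 67.0 and 9.04 CPM (2.89, 2.10 to 3.80). Basophil and mast-like cells stood at 41.1 and 6.77 CPM (2.60, 1.53 to 3.84), and monocyte progenitor-like cells at 27.7 and 4.996 CPM (2.47, 2.01 to 2.94). The intervals of these ratios, and that of neutrophil progenitor-like cells, lie above that of the erythroid-like class. Taken as UMIs per barcode, Hbb-bs in KI ran from 0.0955 (basophil and mast) to 0.152 (erythroid) over the 7 classes, and in WT from 0.00441 (lymphoid-primed) to 0.120 (erythroid).

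Neutrophil progenitors do not make hemoglobin, and gave a level against which to read the others. In KI, 13.7% of neutrophil progenitor-like cells had an Hbb-bs UMI at a median depth of 8832 UMIs, against 13.8% of erythroid-like cells at 14353 UMIs and 11.1% of stem and multipotent-like cells at 3792 UMIs. The Hbb-bs share of KI erythroid-like cells was thus close to that of a cell type that should lack the gene, at a higher depth. It leaves out the globin-high cells, with which the KI erythroid-like class had 21106 Hbb-bs UMIs and without which it had 265. Whether these remaining UMIs are expression was not tested. In WT the Hbb-bs share was 7.56% of erythroid-like cells at 20242 UMIs, against 0.625% of neutrophil progenitor-like cells at 10018 UMIs. Hba-a1 in KI stood at 26.1% of erythroid-like cells, against 4.37% of neutrophil progenitor-like cells. With every cell thinned to 1000 UMIs, an adult globin UMI was found in 5.91% of KI and 3.70% of WT erythroid-like cells, in 10.6% of KI and 2.70% of WT stem and multipotent-like cells, and in 3.27% of KI and 0.236% of WT neutrophil progenitor-like cells. No cell of these classes fell short of that depth.

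**Figure D4:**
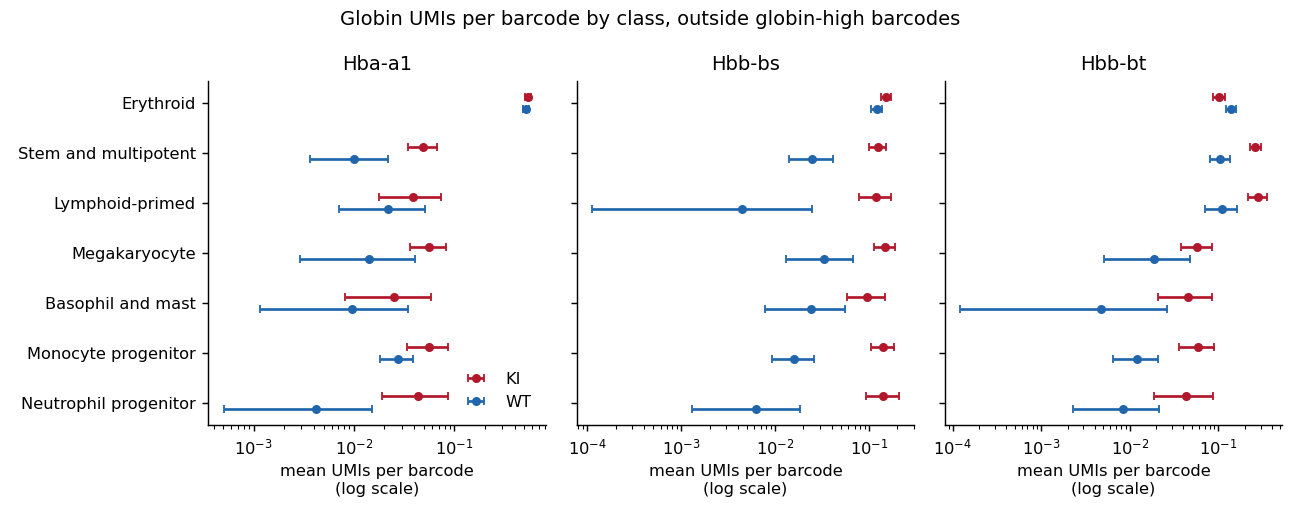
Mean UMIs per barcode (x axis, log scale) of Hba-a1, Hbb-bs and Hbb-bt in 7 classes outside globin-high barcodes, KI (red, above) and WT (blue, below), with exact 95% Poisson intervals. Hba-a1 is highest in erythroid-like cells of both libraries, KI Hbb-bs lies between 0.0955 and 0.152 in all 7, and Hbb-bt is highest in KI in the stem and multipotent-like and lymphoid-primed-like cells.

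Stem and multipotent-like and lymphoid-primed-like cells differed from all of these in the gene that led. In stem and multipotent-like cells, Hbb-bt gave 54.7% (49.5 to 59.8) of adult globin UMIs in KI and 73.6% (63.0 to 82.4) in WT. In lymphoid-primed-like cells it gave 59.3% (49.4 to 68.6) in KI and 80.6% (62.5 to 92.5) in WT. In globin-high barcodes it gave 14.2% in KI and 12.2% in WT, and in erythroid-like cells 10.7% in KI and 15.4% in WT. Hbb-bt stood at 64.4 CPM in KI and 19.7 CPM in WT stem and multipotent-like cells, where Hbb-bs stood at 30.3 and 4.61 CPM. It stood at 61.6 CPM in KI and 17.9 CPM in WT lymphoid-primed-like cells, where Hbb-bs stood at 26.0 and 0.718 CPM.

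The Hbb-bt counts were also uneven from cell to cell. It was found in 12.9% of KI and 6.45% of WT stem and multipotent-like cells, against 4.37% and 0.625% of neutrophil progenitor-like cells, which were deeper. Its variance-to-mean ratio was 3.76 in KI and 2.24 in WT stem and multipotent-like cells, where that of Hbb-bs was 1.09 in KI and 0.975 in WT. At least 3 Hbb-bt UMIs were found in 21 KI and 8 WT stem and multipotent-like cells, up to 12 in KI and 4 in WT. In lymphoid-primed-like cells the counts were small, with 64 Hbb-bt UMIs in 31 KI cells and 25 UMIs in 15 WT cells. An unnamed cluster led by cell division genes (cluster 8, 137 KI and 218 WT cells) held Hbb-bt at 24.6 CPM in KI and 17.2 CPM in WT, 49.1% and 83.7% of its adult globin UMIs. The log2 ratio of Hbb-bt was 1.71 (1.30 to 2.14) in stem and multipotent-like cells and 1.78 (1.09 to 2.51) in lymphoid-primed-like cells.

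**Figure D5:**
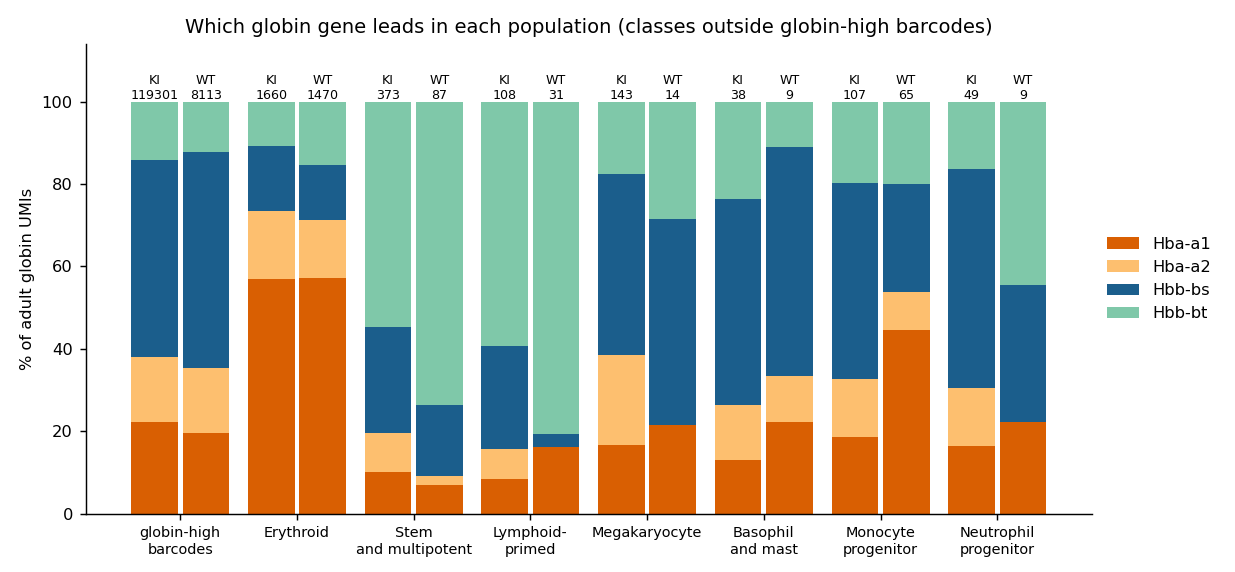
Share of adult globin UMIs (y axis, percent) given by Hba-a1, Hba-a2, Hbb-bs and Hbb-bt in globin-high barcodes and in 7 classes outside them, KI left of WT, with the number of UMIs above each bar. Hbb-bs leads in globin-high barcodes (47.7% in KI, 52.5% in WT), Hba-a1 in erythroid-like cells (57.0% and 57.3%) and Hbb-bt in stem and multipotent-like and lymphoid-primed-like cells, and WT bars with 9 to 14 UMIs fix no order.

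In the remaining classes of KI the Hbb-bs share had intervals that took in that of the globin-high barcodes. Hbb-bs gave 44.1% (35.8 to 52.6) in megakaryocyte-like, 50% (33.4 to 66.6) in basophil and mast-like, 47.7% (37.9 to 57.5) in monocyte progenitor-like and 53.1% (38.3 to 67.5) in neutrophil progenitor-like cells of KI, and 47.7% in the KI globin-high barcodes. In WT these classes held 14, 9, 65 and 9 adult globin UMIs. In WT monocyte progenitor-like cells Hba-a1 led, at 44.6% (32.3 to 57.5), but 1 cell held 9 of its 29 UMIs.

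The genes that control or accompany hemoglobin are read against the genes counted, of which 2.36% were past 2-fold higher and 3.16% lower over all barcodes, and 2.57% and 1.95% among erythroid-like cells. Of 23 regulators of the globin loci, 0 were past 2-fold over all barcodes, with a median log2 ratio of 0.21 against 0.07 over all genes counted, and 0 among erythroid-like cells, with a median of 0.07 against 0.04. Klf1, the main activator of the beta-globin gene, stood at 206 CPM in KI and 153 CPM in WT, a ratio of 0.42 (0.38 to 0.46). Bcl11a, a repressor of embryonic globin genes, stood at 210.4 and 159.7 CPM, a ratio of 0.40 (0.36 to 0.44). Zfpm1, the GATA-1 cofactor FOG1, had the highest ratio of the regulators named here, 0.71 (0.66 to 0.76), and Lmo2, a bridging protein of the GATA-1 complex, stood at 0.07 (0.04 to 0.10). Of 7 neighbours of the alpha-globin genes, 5 had 50 UMIs, 0 of them past 2-fold over all barcodes. Among erythroid-like cells 1 was higher, Sh3pxd2b, from 42 UMIs in KI and 25 in WT, with a ratio of 1.08 (0.34 to 1.86), where 2.57% of all genes were. Nprl3, whose introns hold the alpha-globin enhancers, had 291 UMIs in KI and 434 in WT, a ratio of -0.02.

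Among 17 genes of heme supply, 1 was past 2-fold higher over all barcodes (2.36% of all genes) and 0 lower (3.16%), with a median of -0.05. It was Alas2, with a log2 ratio of 3.40 (2.95 to 3.88), and outside globin-high barcodes it had 10 UMIs in KI and 18 in WT. Alas1, the form of the same enzyme used in all tissues, stood at 57.2 CPM in KI and 113 CPM in WT, a ratio of -0.98 (-1.04 to -0.92). Among erythroid-like cells it stood at 18.6 CPM in KI and 21.2 CPM in WT, a ratio of -0.19 (-0.36 to -0.02). Among erythroid-like cells 1 of 16 was past 2-fold lower (1.95% of all genes), Ppox, which makes protoporphyrin, with a ratio of -1.22 (-1.38 to -1.06), and the median was -0.20. Of 14 heme and redox partners of hemoglobin, 0 were past 2-fold over all barcodes, with a median of 0.01, and 0 of 13 among erythroid-like cells, with a median of -0.07. Prdx2, an abundant peroxidase of red cells, stood at 907 CPM in KI and 737 CPM in WT.

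Of 27 red cell maturation genes, 2 were past 2-fold higher over all barcodes (2.36% of all genes) and 0 lower (3.16%), with a median of 0.30. They included Slc4a1, with a ratio of 5.11 (4.16 to 6.26). Among erythroid-like cells 1 of 26 was past 2-fold lower (1.95% of all genes) and 0 higher (2.57%), with a median of -0.04. It was Trim10, with a ratio of -1.26 (-1.73 to -0.81). This value leaves out the globin-high barcodes, which held 56 of the 113 Trim10 UMIs in KI and 5 of the 185 in WT. Over all barcodes the ratio of Trim10 was -0.16 (-0.51 to 0.19). Car2, a carbonic anhydrase of red cells, stood at 2019 CPM in KI and 1640.0 CPM in WT.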

How the data were processed

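Droplet 3' single-cell RNA was measured in 1 KI and 1 WT library. The authors deposited unnormalized UMI counts for each gene in each barcode, made with Cell Ranger 3.1.0, per the file headers, on mm10, per the submitters' processing notes. How barcodes were chosen is not given in the sources used here. The labels name a v2 reagent kit. All deposited barcodes were used for levels, and Ahsp was not analysed here.

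For classes, barcodes needed 500 genes, 1000 UMIs and at most 10% mitochondrial UMIs. Scrublet (in scanpy 1.11.5) marked 2.59% of WT cells as doublets, which were removed. In KI it marked 0.0692%, less than the 0.5% taken as a working call, and the 5% of cells with the highest scores were removed. This left 5492 KI and 5489 WT cells, clustered jointly, with no correction for library, on 2000 variable genes (members, other globin genes, Gata1, sex-linked, mitochondrial and ribosomal protein genes left out), 30 principal components, 15 neighbours and Leiden resolution 1. A cluster took a name with at least 3 markers of a class among its top 30 genes by fold, more than any other class, with early and late erythroid markers pooled. This form of the naming was set after the clusters were seen.

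Intervals are exact Poisson for sums, Clopper-Pearson for shares and conditional binomial for ratios. UMIs are counted, so intervals cover counting error only, and background RNA was neither estimated nor removed. The ratio script was tested on simulated data. List genes needed 50 UMIs over both libraries. The text names the listed globins, the genes most like them, and from each list the most abundant members (at most 4) and those past 2-fold with 100 UMIs in the higher library, of which it gives a part, and some genes that this rule names are not reported here. Members of lists named outside this rule, such as Bcl11a, Nprl3 and Alas1, were chosen after their values were seen. The genes and lists were chosen with earlier results of these data known. Alternatives tried were cell filters, thresholds, thinning, doublets and clustering resolution, and, chosen after seeing the data, leaving out the barcode that held most of a marker list or of Hba-a1 in a cluster.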

Additional observations from a re-analysis of the deposited data

How the results depend on the processing

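No paired analysis was possible because each genotype has 1 library. With 1 library per genotype, genotype and library cannot be told apart, and the few WT globin-high barcodes limit every WT value that rests on them. Besides the values that leave out 1 barcode, chosen after seeing the data, 77 alternative values were computed, of which 30 stayed within the counting interval of the main value (or within 1.5 times a count), 46 moved beyond it and 1 reversed. Except where a value or the alternative's own construction shows it, the cause was not tested.

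The reversal was the neutrophil progenitor class, at a log2 ratio of -3.60 with its lone WT globin-high barcode and 4.05 without. It stood at -3.15 at Leiden resolution 1.6. Without globin-high barcodes the erythroid class went to 0.51 from 5.30 and the megakaryocyte class to 2.89 from 6.40. With doublets kept the erythroid class stood at 5.48 and the monocyte progenitor class at 6.55, against 2.47. The lymphoid-primed class at resolution 0.6 and the neutrophil progenitor class with doublets kept had too few cells of that name for a value.

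The ratio of adult globins over all barcodes, 4.17, was 4.21 under the cell filter, with or without doublets, 4.58 under the stricter filter (1000 genes, 2000 UMIs, 5% mitochondrial), 3.45 with every barcode weighted equally and 6.15 without the 10 richest barcodes of each library. Without those barcodes the ratio of Hba-a1 was 5.07, of Hba-a2 6.45, of Hbb-bs 7.74 and of Hbb-bt 5.48, and under the cell filter 3.74, 4.44, 4.42 and 4.32. The 10 richest took in all 6 globin-high barcodes of WT but only a part of the 54 of KI. By construction, the ratios without them set KI with most of its globin-high barcodes against WT with none. Outside globin-high barcodes the ratio was 1.21 under the stricter filter, against 1.33.

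Globin-high barcodes numbered 20 in KI and 2 in WT under the cell filter, 19 and 2 without doublets, and 11 and 0 under the stricter filter. At a threshold of 0.2% there were 10 in WT, and 78 in KI. The share of barcodes with an adult globin UMI, 29.5% in KI and 10.8% in WT, was 7.84% and 1.86% when thinned to 1000 UMIs, 5.27% and 1.09% when thinned to 500, and 4.53% and 2.54% for at least 3 UMIs. It was 31.6% in KI and 14.2% in WT under the stricter filter, 13.6% in WT under the cell filter and 13.3% in WT without doublets. The share of adult globin UMIs in the 10 richest barcodes was 65.2% in KI and 59.2% in WT under the cell filter, 67.5% and 60.4% without doublets, and 87.2% and 14.97% under the stricter filter. The 2 richest held 7.96% and 53.2%, and the 50 richest 97.1% and 86.9%.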
